A study of Mus musculus with 8 samples.

Results

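The ATG8 family was followed in the gastrocnemius transcriptome of aged mice with and without NOX4 in muscle. The family has 5 genes here, *Gabarap*, *Gabarapl1*, and *Gabarapl2* of the GABARAP subfamily and *Map1lc3a* and *Map1lc3b* of the LC3 subfamily, and they were taken by gene symbol from the 32390 rows of the count table. Each symbol stood on 1 row, and all 5 passed the filter on low counts that left 12725 rows to be tested.

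Gastrocnemius was taken from 4 Nox4 fl/fl control mice and from 4 MckCre:Nox4 fl/fl mice (KO, NOX4-deficient). Both groups carried the floxed *Nox4* alleles, and Cre, driven by the muscle creatine kinase promoter in skeletal and to a lesser degree cardiac muscle, was carried by the NOX4-deficient group only. All were chow-fed males of 21 months by the labels, a little older than one passage of the study's text has it, and all 8 libraries belonged to batch 1. Polyadenylated RNA of the homogenized whole muscle was sequenced without strand, and the libraries held 16350548 to 19804661 counts. In such bulk tissue, fewer cells of a type and less RNA per cell cannot be told apart. Levels are given as CPM, the counts of a gene per unit of library size scaled with edgeR's TMM method, and errors are SDs over 4 mice.

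ATG8 proteins are small relatives of ubiquitin that become anchored in the membrane of the forming autophagosome. ATG4 proteases trim their C terminus to expose a glycine, and ATG7, ATG3, and the ATG12-ATG5-ATG16L1 complex then join this glycine to the lipid phosphatidylethanolamine. On the membrane they bind receptors that bring cargo such as damaged mitochondria, endoplasmic reticulum, or protein aggregates, and adaptors for transport and for fusion with the lysosome. In skeletal muscle several of their genes are known to be induced by fasting and by denervation through forkhead box O (FOXO) transcription factors.

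To show the end that the lipid is joined to, the last 36 coding bases, stop codon included, of *Gabarap*, *Gabarapl1*, *Gabarapl2*, and *Map1lc3a* were read from the GENCODE transcripts (mouse GRCm38, plus strand in each case). Capitals mark the codon of the glycine that receives the lipid.
*Gabarap* (chr11:69994489-69994524): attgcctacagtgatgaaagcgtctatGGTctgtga
*Gabarapl1* (chr6:129541132-129541167): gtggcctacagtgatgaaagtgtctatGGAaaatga
*Gabarapl2* (chr8:111952370-111952405): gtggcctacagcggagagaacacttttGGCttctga
*Map1lc3a* (chr2:155277602-155277637): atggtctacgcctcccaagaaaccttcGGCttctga

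Each of these stretches lies within a single coding exon. The glycine was followed by 1 further codon before the stop in each of these 4 genes, the residue that ATG4 removes. The 3 GABARAP genes encode 117 codons each, *Map1lc3a* 121, and *Map1lc3b* 125. *Gabarap* and *Gabarapl1* shared 74.6% of their aligned coding bases and *Map1lc3a* and *Map1lc3b* 76.3%. *Gabarapl2* shared 61.5% with *Gabarap* and 63.5% with *Gabarapl1*, and pairs across the subfamilies shared 51.0 to 55.7%. No pair of their longest protein-coding mRNAs, taken whole, had more than 17 bases in a row in common, the longest run being that of *Gabarap* and *Gabarapl1*.

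On GRCm38, *Gabarap* spans chr11:69991143-69994951, *Gabarapl1* chr6:129533160-129542346, *Gabarapl2* chr8:111940703-111953612, *Map1lc3a* chr2:155276297-155278073, and *Map1lc3b* chr8:121590361-121598760. The libraries do not tell strands apart, so genes on the opposite strand matter for the counts. *Gabarapl1* overlaps *1700101I11Rik* on the opposite strand over 658 bases, but that row held only 1 to 17 counts per library. *Map1lc3b* overlaps *Zcchc14* over 58 bases, and *Zcchc14* held 364 to 677 counts. On the same strand *Gm44243* overlaps *Gabarapl1* over 692 bases and *Gm20388* overlaps *Map1lc3b* over 8400 bases, and the counts of both were not analysed here.

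*Nox4* itself was rarely sequenced. The 4 control libraries held 85, 48, 35, and 70 counts on it and the 4 NOX4-deficient libraries 29, 43, 42, and 37. The means were 3.27 ± 1.42 and 2.07 ± 0.220 CPM (SD, n = 4 each), and the groups overlapped. *Nox4* had a log2 fold change of -0.65 (SE 0.29; edgeR adjusted p = 0.207), and the adjusted p lay between 0.106 and 0.489 under every alternative tried. At this depth *Nox4* therefore did not separate the labels, and a count over the whole gene can include exons outside the deleted part and cells without Cre, whose part was not tested.

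Of the 5 ATG8 genes, *Gabarapl1* fell to 33.4% of its control level, and the other 4 were not called. A gene was called when its adjusted p was under 0.05 and its log2 fold change exceeded 0.5 in size, which held for 6.16% of all rows tested, with 3.48% lower and the rest higher. By DESeq2, too, *Gabarapl1* was the 1 member called. Between the genotypes, *Gabarapl1* moved from 145 to 48.6 CPM, *Map1lc3b* from 244 to 189 CPM, *Map1lc3a* from 157 to 138 CPM, and *Gabarap* from 132 to 125 CPM, whereas *Gabarapl2* stood at 72.8 and 73.2 CPM.

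*Gabarapl1* encodes the closest relative of GABARAP and is known in muscle as a FOXO3-responsive gene. Its CPM values were 155.9, 136.4, 122.6, and 166.4 in control replicates 1 to 4 and 57.03, 43.79, 42.89, and 50.78 in NOX4-deficient replicates 1 to 4. Every NOX4-deficient library lay far below every control library, the nearest pair being 57.03 and 122.6 CPM. This separation rested on 2291 to 3201 counts per control library and 816 to 948 counts per NOX4-deficient library. The fall was a log2 fold change of -1.58 (SE 0.13; 95% confidence interval -1.86 to -1.30; edgeR adjusted p = 4.41e-05). It ranked 7 by p among the 12725 rows tested. Over all rows tested, 16.2% had groups that did not overlap, and in 8.97% every NOX4-deficient library lay below every control library. With any single library left out the log2 fold change stayed between -1.65 and -1.51.

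*Map1lc3b* encodes LC3B, the form most often blotted to follow autophagosomes. It had 237.7, 219.0, 234.6, and 283.9 CPM in control muscle and 223.0, 168.7, 176.0, and 189.9 CPM in NOX4-deficient muscle. The groups overlapped only through NOX4-deficient replicate 1, which lay above control replicate 2. The log2 fold change was -0.365 (SE 0.12; 95% confidence interval -0.62 to -0.11; edgeR adjusted p = 0.0825). The adjusted p was 0.0389 with DESeq2 and 0.0485 by edgeR without NOX4-deficient replicate 1, and the size of the change was under the minimum of 0.5 in both.

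*Map1lc3a* encodes LC3A, the closest relative of LC3B. Its levels were 161.4, 135.7, 160.8, and 169.2 CPM in control libraries and 172.8, 105.4, 149.9, and 125.2 CPM in NOX4-deficient libraries. The NOX4-deficient libraries spread on both sides of the control range, from 105.4 to 172.8 CPM. The log2 fold change of -0.18 (SE 0.14; 95% confidence interval -0.49 to 0.13) had an edgeR adjusted p of 0.494.

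*Gabarap* encodes the founding member of its subfamily, named after the receptor for γ-aminobutyric acid that it binds. It measured 141.5, 126.7, 125.0, and 135.2 CPM in control muscle and 142.8, 106.8, 129.6, and 119.8 CPM in NOX4-deficient muscle, and these ranges overlapped. Its log2 fold change was -0.083 (SE 0.11; 95% confidence interval -0.31 to 0.15; edgeR adjusted p = 0.691).

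*Gabarapl2* encodes GATE-16, first described in transport within the Golgi. Control libraries had 79.35, 73.54, 72.56, and 65.61 CPM of it and NOX4-deficient libraries 78.99, 62.91, 76.58, and 74.17 CPM, again with overlap. The log2 fold change was 0.008 (SE 0.10; 95% confidence interval -0.22 to 0.23; edgeR adjusted p = 0.977), and its sign turned when single libraries were left out.

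Among the NOX4-deficient libraries, replicate 1 was the highest for all 5 genes, and replicate 2 the lowest for each gene except *Gabarapl1*, where replicate 3 was slightly lower. The intervals above limit how far the 4 genes that were not called could have moved: none reached the -1.30 that bounds the fall of *Gabarapl1*.

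**Figure D1:**
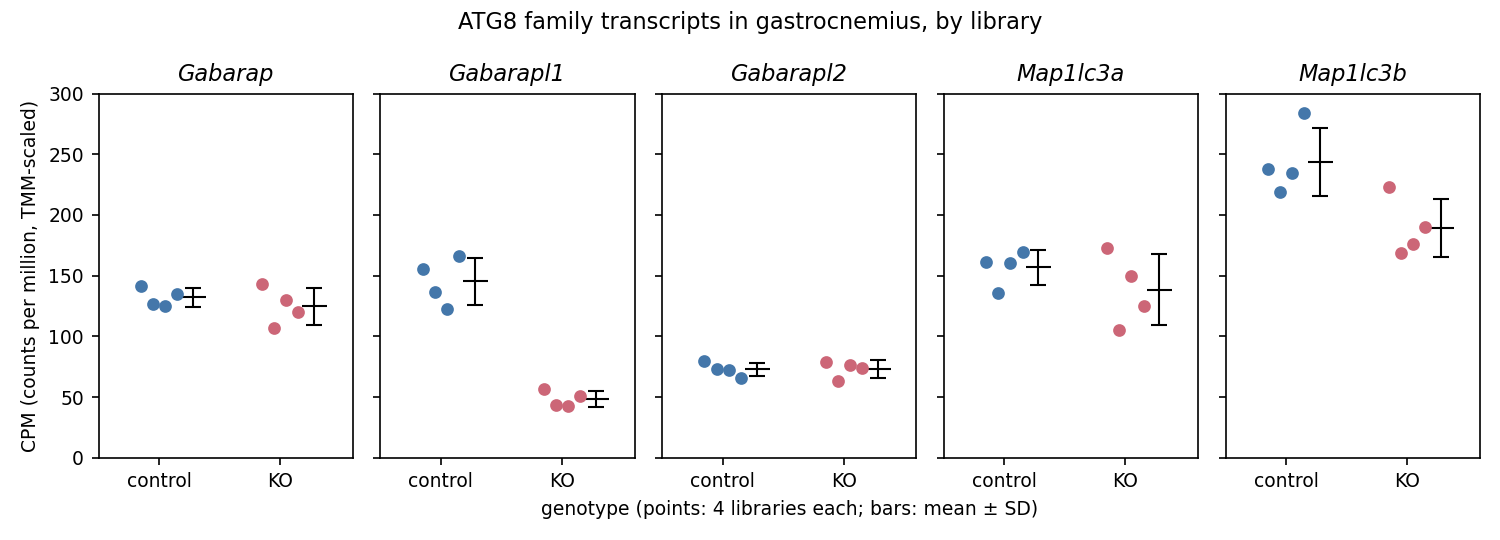
TMM-scaled CPM of the 5 ATG8 genes (y axis) in 4 control and 4 NOX4-deficient (KO) libraries (x axis); points are libraries and bars the mean ± SD. *Gabarapl1* is the 1 gene whose groups do not overlap, at 122.6 to 166.4 against 42.89 to 57.03 CPM.

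To compare levels between members, CPM were divided by the longest annotated transcript of each gene in kilobases (1351 bases for *Gabarap*, 1820 for *Gabarapl1*, 1677 for *Gabarapl2*, 1112 for *Map1lc3a*, and 4138 for *Map1lc3b*). On this scale *Map1lc3a* was the highest in control muscle at 141 ± 13.1 CPM per kilobase (SD, n = 4), followed by *Gabarap* at 97.8 ± 5.69, *Gabarapl1* at 79.9 ± 10.8, *Map1lc3b* at 58.9 ± 6.76, and *Gabarapl2* at 43.4 ± 3.36. Of these neighbours, only *Gabarapl1* and *Map1lc3b* had control libraries that overlapped. In NOX4-deficient muscle *Gabarapl1* was the lowest member at 26.7 ± 3.64 CPM per kilobase (SD, n = 4), with every library below every library of *Gabarapl2* at 43.6 ± 4.24. *Map1lc3b* at 45.8 ± 5.82 overlapped *Gabarapl2*, and *Gabarap* at 92.3 ± 11.3 overlapped *Map1lc3a* at 124 ± 26.4.

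The order in control muscle depended on the length used. The longest transcript of *Map1lc3b* retains an intron, and with its longest protein-coding transcript of 2633 bases *Map1lc3b* stood at 92.6 ± 10.6 CPM per kilobase, above *Gabarapl1*. With the coding length alone *Map1lc3b* was the highest member at 645 ± 74.0, and *Gabarapl1* at 411 ± 55.4 lay above *Gabarap* at 373 ± 21.7. With the median over transcripts *Gabarapl1* was the highest at 202 ± 27.2, next to *Map1lc3a* at 190 ± 17.6. *Gabarapl1* was the lowest member in NOX4-deficient muscle with each of the lengths tried.

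The sum of the 5 genes was 440.3, 387.6, 404.5, and 451.4 CPM per kilobase in control libraries and 393.4, 276.2, 342.5, and 319.3 in NOX4-deficient libraries. The groups overlapped through NOX4-deficient replicate 1 and control replicate 2. The mean was 421 ± 29.9 CPM per kilobase (SD, n = 4) in control muscle and 333 ± 48.9 (SD, n = 4) in NOX4-deficient muscle, or 79.1% of control. *Gabarapl1* made up 60.3% of the difference. This part was 54.8% without division by length and 55.6% with the longest protein-coding transcripts. It was 56.1% with coding lengths and 72.1% with median transcript lengths. Without *Gabarapl1* the sum of the other 4 was 341 ± 21.3 and 306 ± 46.3 CPM per kilobase, 89.8% of control, with overlap. When CPM were not divided by length the family stood at 76.5% of control, and every NOX4-deficient library then lay below every control library, as was also the case with coding and median transcript lengths. No test was applied to a sum over chosen genes.

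Within the family, *Gabarapl1* held 19.46, 19.34, 16.65, and 20.26% of the sum in control libraries and 7.965, 8.713, 6.879, and 8.737% in NOX4-deficient libraries. Its share thus went from 18.9 ± 1.57% (SD, n = 4) to 8.07 ± 0.873% (SD, n = 4), with no overlap. The shares of *Gabarap*, from 23.3 ± 0.916% to 27.8 ± 0.727%, and of *Gabarapl2*, from 10.4 ± 1.16% to 13.2 ± 0.836%, were higher in every NOX4-deficient library than in any control library. *Map1lc3a* took 33.5 ± 1.78% and 37.1 ± 2.71% and *Map1lc3b* 14.0 ± 0.907% and 13.8 ± 1.03%, both with overlap. The share of *Map1lc3b* depended on the length used. It was 20.3 ± 1.22% and 20.1 ± 1.39% with the longest protein-coding transcripts and 31.2 ± 1.67% and 31.9 ± 1.70% with coding lengths, again with overlap. Shares add up to the whole, and the higher shares of *Gabarap* and *Gabarapl2* stood beside mean levels of 132 and 125 CPM for *Gabarap* and of 72.8 and 73.2 CPM for *Gabarapl2*.

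**Figure D2:**
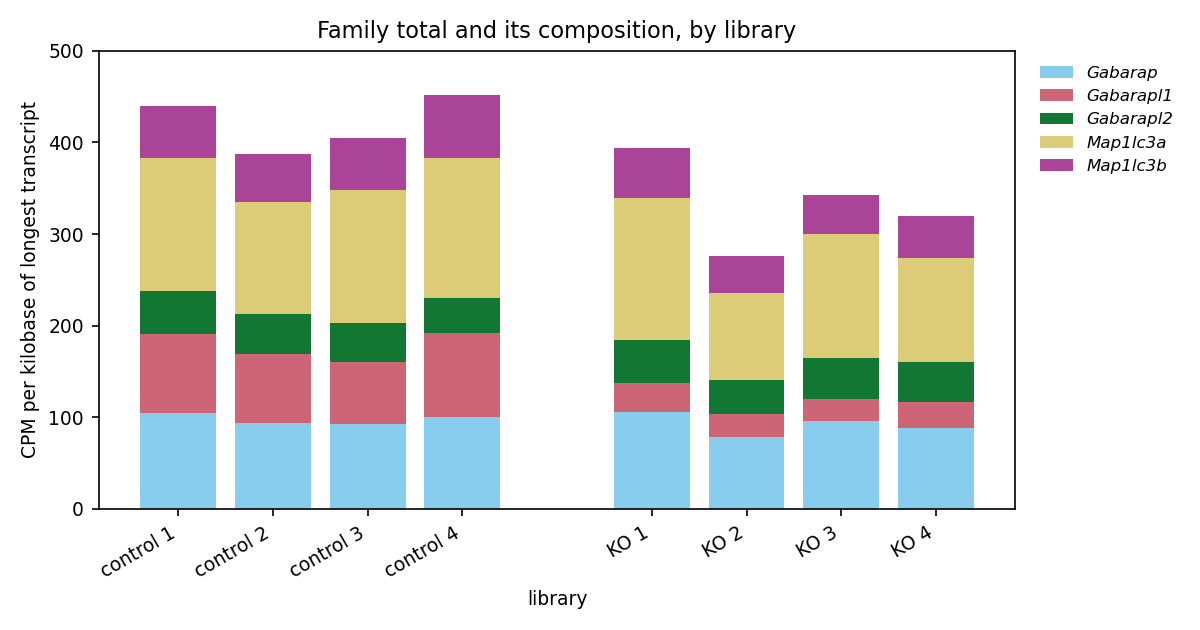
Stacked CPM per kilobase of longest transcript (y axis) of the 5 ATG8 genes in each control and NOX4-deficient (KO) library (x axis). The *Gabarapl1* segment is 67.36 to 91.44 in control and 23.56 to 31.34 in KO libraries, and the sums of the 2 groups overlap.

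Ratios of counts within a library do not depend on how libraries are scaled, and they were compared for all 10 pairs of members. An exact permutation test (two-sided) was used, and the smallest p it can give with 4 mice against 4 is 0.029. *Gabarapl1* was lower relative to each of the other 4 members. The log2 ratio of *Gabarapl1* over *Gabarap* was 0.14, 0.106, -0.028, and 0.30 in control libraries and -1.324, -1.285, -1.596, and -1.239 in NOX4-deficient libraries. The difference was -1.49 on the log2 scale for *Gabarapl1* over *Gabarap*, -1.58 over *Gabarapl2*, -1.38 over *Map1lc3a*, and -1.21 over *Map1lc3b*. In each of these 4 ratios every NOX4-deficient library lay below every control library (exact p = 0.029, and 0.0477 after Benjamini-Hochberg adjustment over the 10 pairs).

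The ratio of *Gabarapl1* to *Map1lc3b* was the most even within the NOX4-deficient group, with a mean log2 ratio of -1.963 ± 0.056 (SD, n = 4) against -0.749 ± 0.141 (SD, n = 4) in control muscle. *Gabarap* and *Gabarapl2* were both higher relative to *Map1lc3b* in NOX4-deficient muscle, by 0.28 and 0.37 on the log2 scale (exact p = 0.029 and adjusted p = 0.0477 for each, with no overlap). *Map1lc3b* thus stood lower relative to these 2 genes, although its own level was not called. The other 4 pairs differed by -0.095 to 0.206 on the log2 scale, with overlap and exact p from 0.171 to 0.257. The 10 pairs share genes, so their tests are not independent. The adjusted p of 0.0477 for *Gabarap* and *Gabarapl2* over *Map1lc3b* also depends on the 4 ratios of *Gabarapl1*, which had the same exact p.

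**Figure D3:**
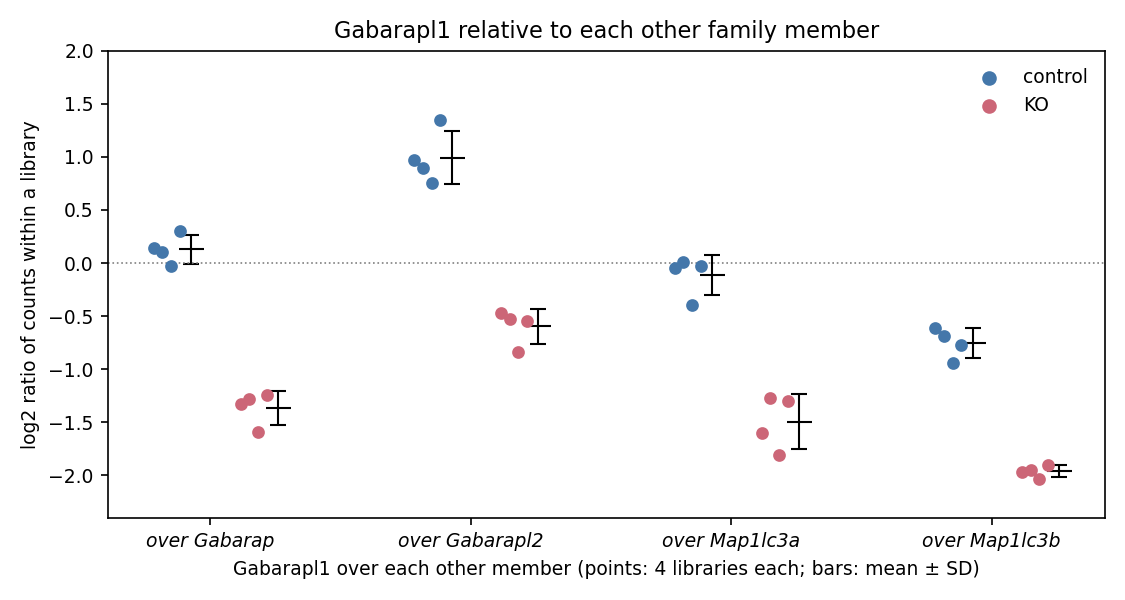
Log2 ratio of *Gabarapl1* counts to those of each other ATG8 gene within a library (y axis), for 4 control and 4 NOX4-deficient (KO) libraries per ratio (x axis); bars are the mean ± SD. In all 4 ratios the KO libraries lie below the control libraries.

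The sequence upstream of *Gabarapl1* is shown because this gene alone was called. RefSeq promoters (GRCm38.p6, 250 bases before the start) were at hand for *Gabarap*, *Gabarapl1*, *Gabarapl2*, and *Map1lc3b* and were not looked at for *Map1lc3a*. Both strands were searched for the FOXO motif GTAAACA, the E-box CACGTG, the antioxidant response core TGACNNNGC, and the amino acid response motif TGATGNAA, which 3.17, 6.02, 10.2, and 3.45% of all 32851 such promoters hold. None of the 4 members had a match to any of them. The shorter forkhead core TAAACA, which lies within GTAAACA and was added after the sequence had been read, was found in *Gabarapl1* alone of the 4, with its first base 94 bases before the start, and in 3952 of all 32851 promoters. The part of this promoter before the gene's annotated start (chr6:129532942-129533159, plus strand, TAAACA in capitals) follows.
*Gabarapl1* promoter: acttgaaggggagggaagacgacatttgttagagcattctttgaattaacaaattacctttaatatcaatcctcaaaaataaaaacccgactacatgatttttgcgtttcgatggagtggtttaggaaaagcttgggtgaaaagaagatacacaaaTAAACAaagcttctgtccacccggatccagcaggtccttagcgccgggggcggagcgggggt

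None of the enzymes that process ATG8 proteins was called. Of 12 genes of the lipidation machinery, 0 were called in either direction by edgeR or by DESeq2, and 0 had an unadjusted edgeR p under 0.05. Their median log2 fold change was -0.011, beside 0.014 over all rows tested. *Atg7*, the activating enzyme, had a log2 fold change of -0.064, *Atg3*, the conjugating enzyme, 0.008, and *Atg4b*, the main protease, -0.11 (edgeR adjusted p from 0.61 to 0.978). *Atg5*, *Atg12*, and *Atg16l1*, whose products form the complex that directs the lipid transfer, had log2 fold changes of -0.004, 0.013, and -0.018. The summed CPM of all 12 genes ranged from 285 to 302 in control and from 281 to 304 in NOX4-deficient libraries.

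Among the receptors that bind ATG8 proteins, 4 of 21 tested genes were called lower and 0 higher by edgeR as by DESeq2, where 3.48% of all rows tested were called lower. The median log2 fold change of the list was -0.274. *Retreg1*, a receptor for endoplasmic reticulum, went from 667 ± 210 to 253 ± 25.7 CPM (SD, n = 4; log2 fold change -1.40, edgeR adjusted p = 0.00106). *Sqstm1*, which encodes the ubiquitin-binding receptor p62, went from 1120 ± 129 to 694 ± 58.8 CPM (log2 fold change -0.69, adjusted p = 0.00456). *Bnip3*, a receptor on mitochondria, fell by 0.87 on the log2 scale (adjusted p = 0.00619) and *Optn*, which encodes the ubiquitin-binding optineurin, had a log2 fold change of -0.635 (adjusted p = 0.0227). *Optn* was no longer past the threshold without control replicate 4, NOX4-deficient replicate 1, or NOX4-deficient replicate 3. In 8 of the 21 genes every NOX4-deficient library lay below every control library, the called 4 included, against 8.97% of all rows tested. The mitochondrial receptors *Bnip3l* and *Fundc1* had log2 fold changes of -0.056 and 0.28, and the aggregate receptor *Nbr1* one of -0.356 (adjusted p = 0.0797), and none of these 3 was called. *Tax1bp1* (log2 fold change -0.457, adjusted p = 0.0138) and *Rtn3* (-0.358, adjusted p = 0.0356), named after their values were seen, missed the minimum change alone. *Ccpg1* had too few counts to be tested.

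Of the initiation complexes and the adaptors that bind ATG8 proteins, 4 of 23 tested genes were called lower and 0 higher by both tools. By edgeR, 3.48% of all rows tested were called lower, and the median log2 fold change of the list was -0.149. *Ulk1*, the kinase that starts autophagosome formation, had 141.9, 146.3, 151.9, and 195.8 CPM in control and 86.63, 92.95, 81.99, and 89.53 CPM in NOX4-deficient libraries (log2 fold change -0.86, edgeR adjusted p = 0.00127). Its partner *Atg13* (log2 fold change -0.58, adjusted p = 0.0142), the fusion SNARE *Snap29* (-0.59, adjusted p = 0.0186), and the Rab7 regulator *Tbc1d15* (-0.51, adjusted p = 0.0235) were lower as well. This count rested on single libraries, since it was 1 without control replicate 4 or without NOX4-deficient replicate 3 and 2 without control replicate 3. *Becn1*, of the lipid kinase complex, and *Stx17*, the SNARE that pairs with SNAP29, had log2 fold changes of 0.16 and 0.15 and were not called. *Becn1* had 48.14 to 52.34 CPM in NOX4-deficient and 43.57 to 46.01 CPM in control libraries, without overlap. Of the 23 genes, 6 had every NOX4-deficient library below every control library and 1, *Becn1*, above. Over all rows tested, groups did not overlap in 16.2%, and 8.97% had the NOX4-deficient libraries below. *Rab7* was not analysed here.

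Of 10 transcription factors known to act on autophagy genes, 1 was called lower and 0 higher by edgeR, where 3.48% of all rows tested were called lower. By DESeq2, 2 were called lower (*Nfe2l2* and *Foxo3*) and 0 higher. The edgeR count was 2 without control replicate 2, NOX4-deficient replicate 3, or NOX4-deficient replicate 4. It was also 2 with the replicate number as a block or with no filter on low counts. The median log2 fold change of the list was -0.202. *Nfe2l2*, the master factor of the antioxidant response, went from 70.3 ± 0.835 to 44.9 ± 8.22 CPM (SD, n = 4; log2 fold change -0.65, edgeR adjusted p = 0.0112). *Foxo3* and *Atf4* were lower in every NOX4-deficient library than in any control library without being called by edgeR, at log2 fold changes of -0.58 (adjusted p = 0.0624) and -0.49 (adjusted p = 0.0354, under the minimum change). With *Nfe2l2*, this order of the libraries held for 3 of the 10 genes, against 8.97% of all rows tested. *Foxo1* ranged from 13.84 to 77.22 CPM among the NOX4-deficient libraries and from 39.01 to 96.55 CPM among the controls (log2 fold change -0.64, SE 0.55, adjusted p = 0.539). *Foxo4*, *Tfeb*, *Tfe3*, *Mitf*, *Zkscan3*, and *Ddit3* had log2 fold changes between -0.217 and 0.094 and were not called.

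**Figure D4:**
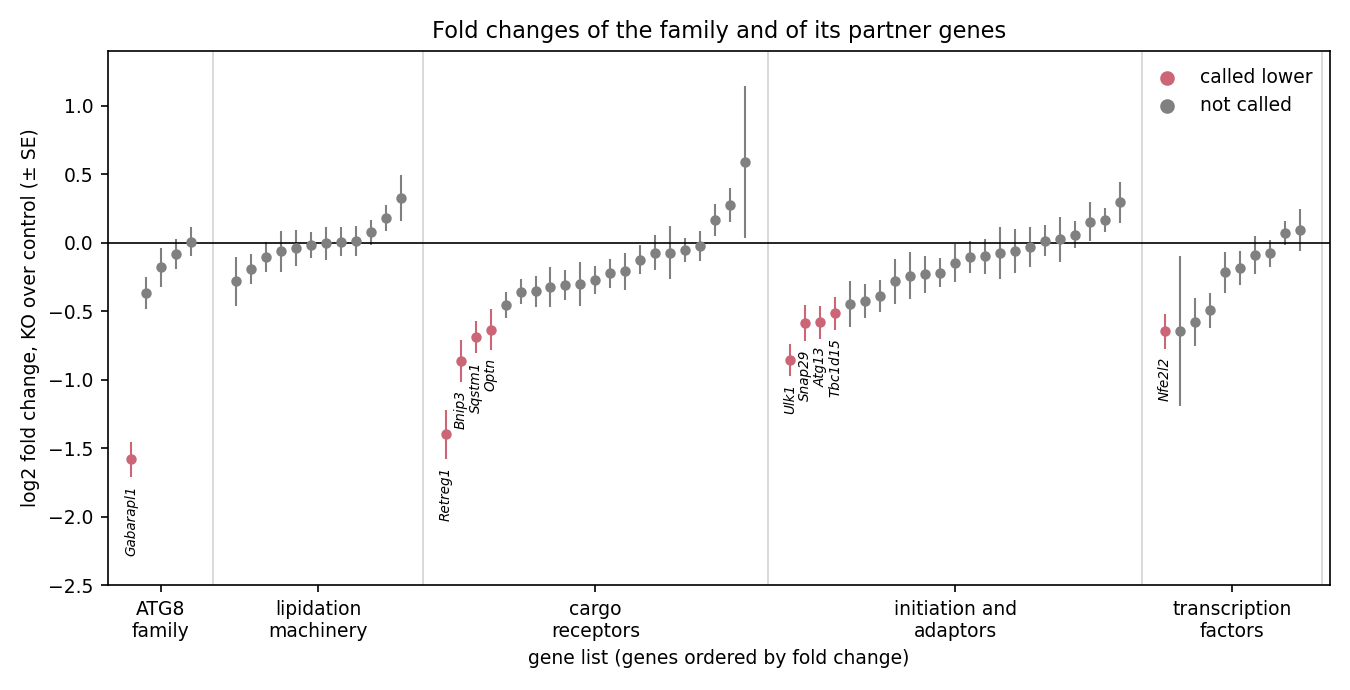
Log2 fold change of NOX4-deficient (KO) over control muscle ± SE (y axis) for the 5 ATG8 genes and for the genes of 4 lists of their partners, ordered by fold change within each list (x axis); red points were called lower. *Gabarapl1* at -1.58 and *Retreg1* at -1.40 lie below all other points, and the lipidation machinery scatters around 0.

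Genes that fasting is known to raise in muscle moved with *Gabarapl1*. Of 10 such genes, chosen with earlier results of these data known, 8 were called lower and 0 higher by both tools. The 8 were *Lpin1*, *Trim63*, *Cdkn1a*, *Fbxo32*, *Ddit4*, *Fkbp5*, *Klf15*, and *Pdk4*. By edgeR, 3.48% of all rows tested were called lower. The median log2 fold change of the 10 genes was -1.58. Their summed CPM ranged from 4220 to 6460 in control and from 1190 to 1970 in NOX4-deficient libraries, without overlap. *Fbxo32* and *Trim63*, which encode ubiquitin ligases of muscle atrophy, had log2 fold changes of -1.62 and -2.18. The count was 5 without control replicate 4, without NOX4-deficient replicate 2, or with no filter on low counts. Their part in the level of *Gabarapl1* was not tested.

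Markers of muscle fibers, adipocytes, immune cells, endothelial cells, and fibroblasts and tendon gave 0 called genes by edgeR or DESeq2. At an unadjusted p under 0.05, 2 immune cell markers (*Ptprc* and *Adgre1*) were lower and 2 fibroblast and tendon markers (*Col1a1* and *Tnmd*) higher. These 4 are named because of their values. Summed CPM of 7 muscle fiber genes ranged from 124000 to 158000 in control and from 133000 to 163000 in NOX4-deficient libraries, as the label of the tissue requires. Those of 7 slow-fiber genes ranged from 294 to 639 and from 386 to 1150, with 7 of 7 log2 fold changes above 0. The sums of adipocyte (14.6 to 80.8 and 20.3 to 74.3), immune cell (7.95 to 21.2 and 8.68 to 13.1), endothelial (188 to 228 and 206 to 226), and fibroblast and tendon markers (394 to 657 and 384 to 580) overlapped as well. The part of these markers in the level of *Gabarapl1* was not tested.

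To find the genes whose levels ran most like those of *Gabarapl1*, log2 CPM (prior count 2) were centred on the mean of the 8 libraries and compared by the root mean square difference over these libraries. The nearest of the 12724 other rows were *Ppp1r27*, a regulatory subunit of protein phosphatase 1, at 0.186, *Cat*, encoding catalase, at 0.202, the small MAF factor *Maff* at 0.238, the kinase gene *Dapk1* at 0.238, and *4931413K12Rik* at 0.247, where the median over all rows was 0.844. *Cat* had 216.3, 219.0, 184.2, and 200.2 CPM in control and 82.00, 74.04, 76.10, and 97.74 CPM in NOX4-deficient libraries. All 5 shared the drop between the genotypes, with log2 fold changes from -1.48 to -1.29. When values were centred within each genotype, 0 of the 5 remained among the 5 nearest.

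For the other members the nearest rows were *Exosc5* to *Gabarap* (0.038), *Prdx3* to *Gabarapl2* (0.030), *Sod1* to *Map1lc3a* (0.073), and *Ubac2* to *Map1lc3b* (0.066). Within the family, *Gabarap* and *Gabarapl2* were the closest pair at 0.098 and *Gabarapl1* and *Gabarapl2* the most distant at 0.813. The points share their 8 libraries, and these values are a description without a test.

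**Figure D5:**
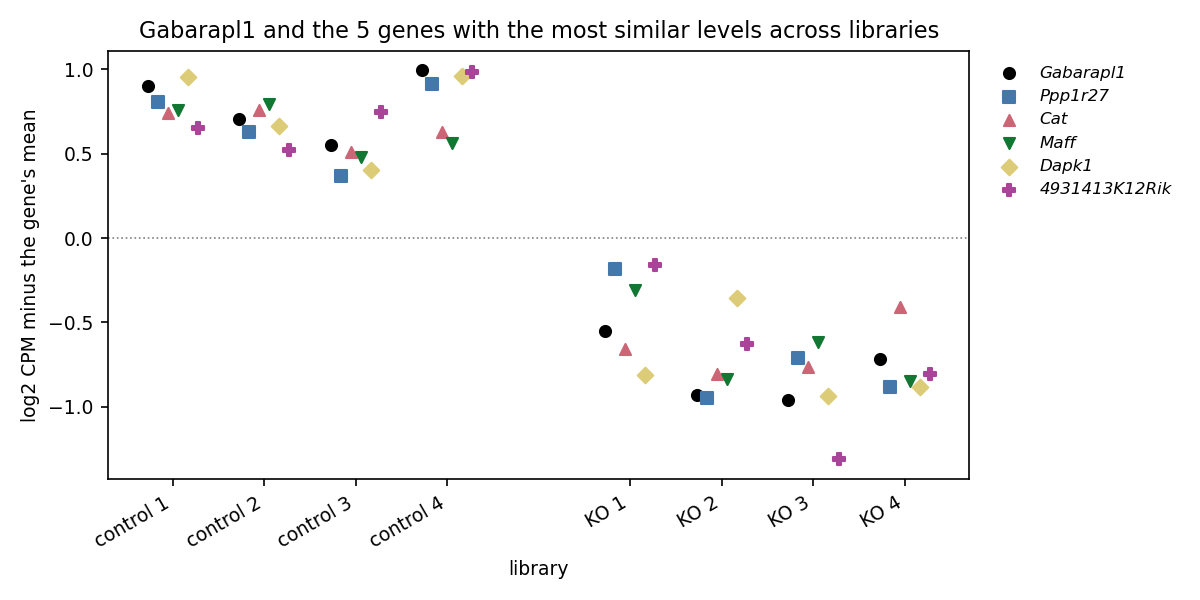
Log2 CPM minus the gene's own mean over 8 libraries (y axis) for *Gabarapl1* and the 5 rows nearest to it, in each control and NOX4-deficient (KO) library (x axis). All 6 genes lie above 0 in the 4 control libraries and below 0 in the 4 KO libraries.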

How the data were processed

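RNA-seq counts of gastrocnemius from 4 control and 4 NOX4-deficient mice were analyzed. The authors made the reads into gene counts with the nf-core RNA-seq pipeline and deposited raw counts per gene symbol, without normalization. The submitters' processing notes name STAR and GRCm39, and the annotation and counter settings are not given in the sources used here. Coordinates and transcript lengths are from GENCODE and RefSeq for GRCm38, matched by symbol, and were not converted.

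The test was that of edgeR 4.0.16 in R 4.3.3 (TMM, filterByExpr, robust quasi-likelihood F test, genotype only). Benjamini-Hochberg adjustment ran over all 12725 rows tested, and a call needed an adjusted p under 0.05 with a log2 fold change beyond 0.5 in either direction. The fit was tested on simulated data. DESeq2 1.42.0 was an alternative, beside other scaling, filters, thresholds, transcript lengths, a replicate block, and each library left out. Libraries held 16350548 to 19804661 counts, and no replicate pair was as close as counting noise alone would make it (chi-square over degrees of freedom, 13.3 to 56.6). The permutation tests used scipy 1.17.1.

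The members and lists were chosen with earlier results of these data known. Named are the 5 members and *Nox4*, the called genes of each list, pathway genes fixed by name, and the nearest rows by likeness. In the family identity alignments Biopython 1.88 was used. The 14 RefSeq pseudogenes of the family were not analysed here. The markers of nerve and the coding end of *Map1lc3b* are not reported here.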

Additional observations from a re-analysis of the deposited data

Results flagged for a closer look

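Among 60 groups of 4 libraries, 4 held a library whose gap to the nearest other exceeded the critical value of Dixon's test, as a fraction of the group's range. Chance gives such a gap in about 1 of 20 groups, or 3.0 here. *Retreg1* in control replicate 4 stood at 981.5 CPM against 553.1 to 580.6 in the other controls (gap 0.936 of the range). *Atg13* was also highest in control replicate 4, at 82.2 CPM against 63.35 to 65.55 (0.883). *Prdx3*, the row nearest to *Gabarapl2*, was lowest in NOX4-deficient replicate 2, at 141.7 CPM against 172.8 to 178.1 (0.854). *Nox4* was lowest in NOX4-deficient replicate 1, at 1.745 CPM against 2.169 to 2.207 (0.918). No library stood apart in this way for any of the 5 ATG8 genes.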

How the results depend on the processing

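*Gabarapl1* was called lower, and no other member was called, under all 16 alternatives, with log2 fold changes from -1.65 to -1.51 (adjusted p from 4.42e-26 to 3.14e-04). *Gabarap* and *Map1lc3a* kept their sign and were not past the threshold in 15 of 15. With single libraries left out *Gabarapl2* ranged from -0.03973 to 0.07384, its sign turning without control replicate 4 (-0.03973), NOX4-deficient replicate 1 (-0.0193), or NOX4-deficient replicate 3 (-0.002961). *Map1lc3b* ranged from -0.4409 (without NOX4-deficient replicate 1, adjusted p = 0.0485) to -0.2843, and with DESeq2 it was -0.3673 (adjusted p = 0.0389). Over the table, rows called lower ranged from 295 to 425 and rows called higher from 204 to 317 with single libraries left out, against 443 and 341 with all 8, and both were smallest without control replicate 4. Genes called lower over the 4 pathway lists ranged from 5 (without control replicate 4) to 10 with single libraries left out, against 9 with all 8, and were 12 with no minimum fold change. Without control replicate 4 *Atg13*, *Optn*, *Snap29*, and *Tbc1d15* were no longer called, and without NOX4-deficient replicate 3 the same 4 were lost and *Atf4* was gained, which left 6. The share of *Gabarapl1* in the family differed by -14.92 percentage points with median transcript lengths, against -10.85 with the longest. Centring within genotype left 0 of the 5 nearest genes. The causes of these shifts were not tested, apart from fewer libraries.

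Same-numbered replicates did not deviate together in each pair (r = 0.223, 0.147, 0.041, and 0.041), and not every library correlated best with its own number, so the numbers were not taken to pair mice. With the replicate number as a block *Gabarapl1* was at -1.579 (adjusted p = 8.59e-06) and *Map1lc3b* at -0.3662 (adjusted p = 0.0523), and 10 genes of the lists were called lower. Depth limits *Nox4*, with 29 to 85 counts per library, more than the members, each with at least 816.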

Other observations

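The GABARAP subfamily made up 52.5 ± 2.23% (SD, n = 4) of the family's CPM per kilobase in control and 49.1 ± 1.91% (SD, n = 4) in NOX4-deficient muscle, with overlap. With coding lengths these shares were 48.0 ± 2.25% and 44.3 ± 1.18%, and every NOX4-deficient library then lay below every control library. The same separation was seen with median transcript lengths (61.5 ± 2.14% and 56.6 ± 1.86%) and without division by length (46.7 ± 2.24% and 43.0 ± 1.16%). With the longest protein-coding transcripts the groups overlapped. The balance between the subfamilies therefore separated the genotypes with some of the lengths and not with others, and no test was applied to it.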
